A study of Mus musculus with 4 samples.

Results

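The Smad3 locus held 4 of the 1585 LMO2 peaks listed for pro-B(+) cells. These 4 are all the peaks for which the list gave Smad3 as the gene of the nearest transcription start site (TSS). Smad3 was chosen by its number of listed peaks, among the highest in the list, so that number, the scores and the positions are a description of what was chosen and carry no test. The assay was ChIP-seq, which sequences the DNA recovered with antibodies against a chromatin protein. The series holds 2 LMO2 ChIP samples, made with a mixture of anti-LMO2 antibodies, and 2 input samples of the same chromatin without antibody. All 4 samples came from a single cell line of strain C57BL6/J, the Ebf1-deficient pro-B(+) line from fetal liver progenitors, cultured on OP9 stromal cells with SCF, IL-7 and Flt3L. There was no second cell type, treatment or Lmo2-deleted sample, and the list gives 1 value per peak for both replicates together, so neither a spread between replicates nor the depth of a sample could be computed from it. A peak list holds no expression, so neither the identity of the cells nor the transcription of Smad3 was measured here.

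SMAD3 is a transcription factor of the TGF-β and activin pathway. The ligands bring type I and type II receptors together, the type I receptor phosphorylates SMAD2 and SMAD3, and these enter the nucleus with SMAD4, whereas SMAD6 and SMAD7 inhibit the pathway and SMAD1, SMAD5 and SMAD9 carry signals of the BMP branch. In lymphoid cells TGF-β is best known for restraining proliferation and for its part in regulatory T cells. LMO2 itself has no DNA-binding domain. It joins bHLH factors such as E2A with LYL1 or TAL1 to GATA factors and LDB1, and the complex takes its place on DNA from these partners.

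The reference sequences of the 4 peaks are shown because the motif content described below is read from them. They are plus-strand sequences of GRCm38 (mm10), each 207 bp long, whereas Smad3 lies on the minus strand. Peaks are named by the distance of their centre from the Smad3 TSS, positive values lying downstream of it, inside the gene. Capitals mark every match, on either strand, to TGTGGT (RUNX), CTTCCT (ETS, written AGGAAG where the match is on the minus strand) and CAGCTG (bHLH).
+41.7 kb peak, chr9:63716236-63716442: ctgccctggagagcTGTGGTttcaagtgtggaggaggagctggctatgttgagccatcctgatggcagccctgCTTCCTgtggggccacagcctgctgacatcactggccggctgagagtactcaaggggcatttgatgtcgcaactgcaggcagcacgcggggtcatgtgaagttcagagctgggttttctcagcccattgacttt
+31.3 kb peak, chr9:63726604-63726810: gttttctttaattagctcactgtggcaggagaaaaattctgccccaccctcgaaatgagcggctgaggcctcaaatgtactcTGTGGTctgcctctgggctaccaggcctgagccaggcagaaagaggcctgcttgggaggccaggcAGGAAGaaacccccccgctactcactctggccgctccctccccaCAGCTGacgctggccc
+20.3 kb peak, chr9:63737551-63737757: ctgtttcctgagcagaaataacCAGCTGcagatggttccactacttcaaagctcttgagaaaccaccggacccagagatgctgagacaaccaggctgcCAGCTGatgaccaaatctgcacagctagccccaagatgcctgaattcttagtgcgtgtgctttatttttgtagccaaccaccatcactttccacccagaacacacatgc
-1.3 kb peak, chr9:63759232-63759438: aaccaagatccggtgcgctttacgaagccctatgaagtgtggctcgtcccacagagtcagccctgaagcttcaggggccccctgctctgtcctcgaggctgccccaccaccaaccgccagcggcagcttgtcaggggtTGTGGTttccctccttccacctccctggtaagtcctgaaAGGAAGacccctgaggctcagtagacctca

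Smad3 occupies positions 63646766 to 63757994 of chromosome 9 in GRCm38 and is transcribed from the minus strand, with 9 exons in its curated RefSeq transcript NM_016769.4. Of the 4 peaks, 3 lay inside the gene, all in intron 1 of 8, and the other lay upstream. A listed peak in the gene body was found for 3.03% of RefSeq protein-coding genes. Intron 1 spans 63667923 to 63757471, which is 80.5% of the 111229 bp of the gene. Most of the gene is thus this intron, and Smad3 is longer than 90.3% of RefSeq protein-coding genes. Across the list, 207 of the 605 intronic peaks (34.2%) were annotated to the first intron of a transcript.

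The +31.3 kb peak, at 63726604 to 63726810, had the highest score of the 4, 29.1. It ranked 362nd of the 1585 peaks by score, within the highest 22.8%, and 24th of the 103 peaks on chromosome 9. Its centre lay 31287 bp downstream of the TSS, and its focus ratio, the share of a peak's reads placed as around a single point of binding, was 0.788. This ratio equals the median of the whole list, so the peak stood above most others by score but not by focus ratio.

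The +20.3 kb peak, at 63737551 to 63737757, had a score of 21.7 and ranked 688th. Its centre was 20340 bp downstream of the TSS and its focus ratio was 0.767. This peak also lay entirely inside an exon of Gm51710, a predicted long non-coding RNA gene on the plus strand (63731608 to 63738382), opposite to Smad3. The list annotated the peak to the intron of Smad3 only, GENCODE M21 has no exon there, and whether Gm51710 is transcribed in pro-B(+) cells was not measured.

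The +41.7 kb peak, at 63716236 to 63716442, had a score of 17.7 and ranked 1072nd, below the list median of 20.3. Its focus ratio of 0.851 was the highest of the 4 and ranked 193rd in the list, within the highest 12.2%. The order of the peaks by focus ratio was therefore not their order by score. This peak is 41655 bp from the curated TSS but 4080 bp upstream of the start of a predicted shorter Smad3 transcript, XM_006510819.3, at 63712259. GENCODE M21 has further Smad3 transcripts that start at 63743265 and 63751077, between the +20.3 kb peak and the curated TSS.

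The -1.3 kb peak, at 63759232 to 63759438, was annotated as intergenic, 1341 bp upstream of the TSS. It had the lowest score, 16.3, and the lowest focus ratio, 0.731, of the 4. It ranked 1269th by score, a value shared by 34 peaks, and 1312th by focus ratio. It is the peak closest to the start of the gene and lay near the minimum score of 15 that the authors kept.

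Of the 4 scores, 2 were above the median of the list and 2 below it, and their median was 19.7. A score of at least 20 was reached by 2 of the 4 and by 52.1% of all listed peaks, and a score of at least 30 by none of the 4 and by 21.6% of the list. By score, the peaks at Smad3 thus lay around the middle of the list, and no test was made of so few peaks of a single locus.

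**Figure D1:**
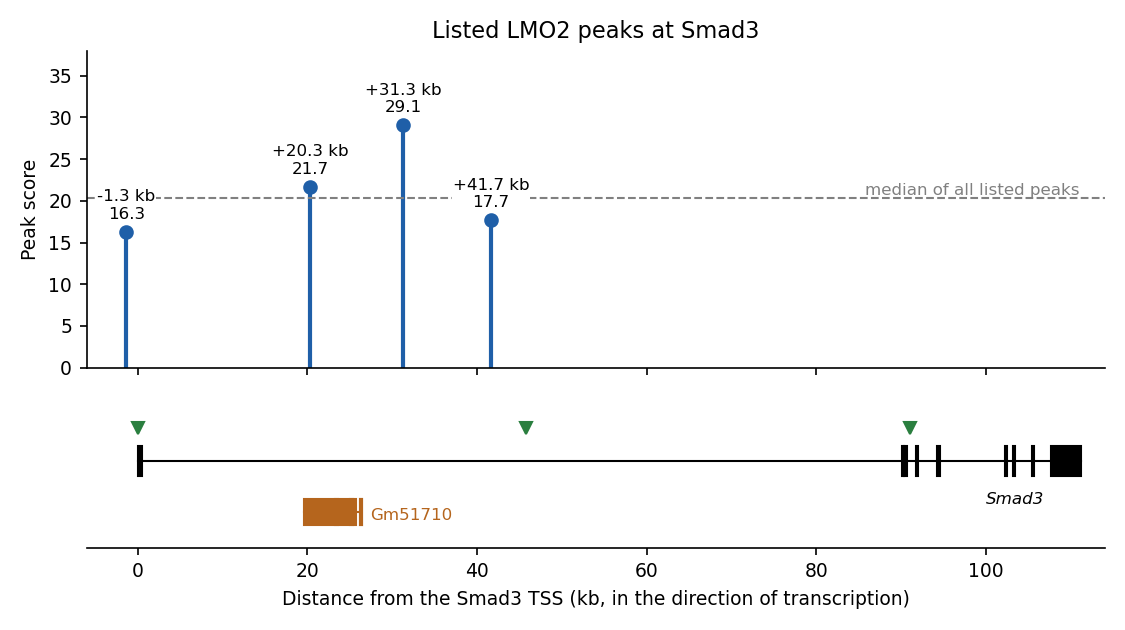
Listed LMO2 peaks at Smad3 by distance from its TSS (kb, x axis) and peak score (y axis), with the exons of NM_016769.4 (black), the exons of Gm51710 (brown) and the starts of the RefSeq transcripts of Smad3 (green triangles) below. The 3 intronic peaks lie in the part of intron 1 nearer to the TSS, and the scores run from 16.3 to 29.1 around the list median of 20.3 (dashed line).

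**Figure D2:**
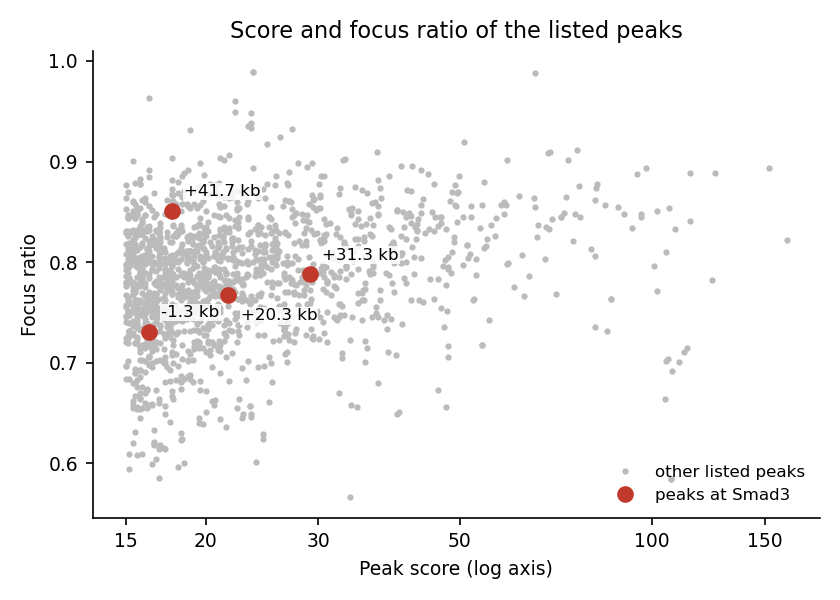
Peak score (x axis, log scale) and focus ratio (y axis) of all 1585 listed peaks, with the 4 at Smad3 in red. The +31.3 kb peak has the highest score of the 4 and the +41.7 kb peak the highest focus ratio, 0.851.

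The peaks at Smad3 were close together and far from any other listed peak. From the +41.7 kb peak to the +31.3 kb peak the distance between centres was 10368 bp, and from there to the +20.3 kb peak it was 10947 bp. The distance from the +20.3 kb peak to the -1.3 kb peak was 21681 bp. The intronic peaks were thus spaced almost evenly, and the gap across the TSS was about as long as the others put together. The whole group spanned 42996 bp. Over the list, neighbouring peaks on a chromosome were a median of 365631 bp apart, and 16.6% of the 1563 distances were no longer than the longest at Smad3. Smad3 was chosen for many peaks given to 1 TSS, which favours short distances, so this is a description. Its median distance was 10947 bp. Among the genes with at least 4 peaks compared below, it was shorter at Cbfa2t3 (1350 bp), Rcbtb2 (5568 bp), Cpn2 (6715 bp), Gm5122 (7531 bp) and Speer1 (9640 bp). It was longer at Runx3 (10984 bp), Gm17746 (24564 bp) and Mir6388 (43606 bp).

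On the side of the 3′ end, the nearest other listed peak was 1695938 bp away, at 62020298 to 62020504 in Paqr5, with a score of 24.3. On the upstream side it was 805168 bp away, at 64564400 to 64564606, was given to Rab11a and had a score of 23.2. RefSeq places 12 other protein-coding genes within 500 kb of Smad3, among them Aagab, which ends 2176 bp beyond the 3′ end of Smad3, Iqch, Map2k5, Smad6 and Map2k1. None of the 12 was given a peak in the list or had one in its body. Among all RefSeq protein-coding genes, 4.25% were given a listed peak by name and 3.03% had one in the body. With shares this low, the absence of a peak from 12 genes is not unusual and was not tested. By the distances above, the region within 500 kb held no listed LMO2 peak but those at Smad3.

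Stretches in which at least 4 consecutive peaks fell within 42996 bp numbered 13 in the list and held 59 peaks (3.72%). Of these, 4 lay in the histone gene clusters of chromosome 13. The stretches at Smad3, Rcbtb2 and Tifab were the 3 with no other listed peak within 805168 bp on either side. Of these 3 stretches, the one at Smad3 had 3 intronic peaks and the others had 0. Among all 13, however, the stretch at Tex14 had 4 intronic peaks, the one at Prss38 had 3 and the one at Cbfa2t3 had 2. Intronic peaks were thus not particular to the stretch at Smad3. Tifab, Tex14, Prss38 and the histone genes are named here after their values were seen. Smad3 fixed both the length and the distance used in these counts, so it meets them by construction.

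RUNX, ETS and bHLH motifs were not used to choose the peaks. The paper, however, reports these motifs as enriched across the same list, which includes the peaks described here. The motifs are therefore not independent of these data. Higher shares in the list than outside the peaks are no separate result. RUNX factors and ETS factors are transcription factors of blood progenitors, and CAGCTG is a form of the E-box that bHLH dimers recognise. TGTGGT, the RUNX motif, occurred in 3 of the 4 peaks, against 55.6% of the 1584 listed peaks on chromosomes 1 to 19, X and Y. CTTCCT, the ETS motif, occurred in 3 of 4, against 52.3%. CAGCTG, the bHLH motif, occurred in 2 of 4, against 34.3%. In the 1495 windows of the same length tiled over Smad3 and 100 kb to either side, outside the peaks, the shares were 17.1%, 25.2% and 11.4%. Each of the 4 peaks held at least 1 of these motifs, as did 85.1% of the list. With 4 peaks these counts are a description and were not tested, and a match of letters does not show that a factor was bound.

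The +31.3 kb peak, which had the highest score, was the only one of the 4 with all 3 motifs, a combination found in 9.09% of listed peaks. TGTGGT lay at 63726686 to 63726691 on the plus strand, 18.5 bp from the centre of the peak. The ETS motif lay at 63726751 to 63726756 on the minus strand and CAGCTG at 63726795 to 63726800, near the edge. This peak also contained CAGAC, a short word to which SMAD3 and SMAD4 bind, on the minus strand at 63726690 to 63726694, overlapping the RUNX motif. CAGAC was present in 1 of the 4 peaks, 50.4% of listed peaks and 41.9% of the tiled windows. GTCTAGAC, a palindrome that SMAD3 and SMAD4 also bind and that shares only AGAC with this word, was present in none of the 4 and in 0.126% of listed peaks.

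The +41.7 kb and -1.3 kb peaks held the RUNX and ETS motifs without CAGCTG. In the +41.7 kb peak, TGTGGT lay at 63716250 to 63716255 and CTTCCT at 63716309 to 63716314, both on the plus strand. In the -1.3 kb peak, TGTGGT lay at 63759370 to 63759375 on the plus strand and the ETS motif at 63759409 to 63759414 on the minus strand. The starts of the RUNX and ETS motifs were 59, 65 and 39 bp apart in the +41.7 kb, +31.3 kb and -1.3 kb peaks, against a median of 37 bp in the 466 listed peaks that held both (29.4%). In all 3 the RUNX motif was on the plus strand and on the side of lower coordinates, whereas the ETS motif occurred on either strand.

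The +20.3 kb peak had neither the RUNX nor the ETS motif but held CAGCTG at 2 places. One, at 63737649 to 63737654, was 2.5 bp from the centre of the peak. The other, at 63737573 to 63737578, was followed directly by a further E-box, CAGATG, at 63737579 to 63737584. CAGATG was found in 1 of the 4 peaks, 38.1% of the list and 18.2% of the tiled windows. The nearest TGTGGT lay at 63737770 to 63737775, just beyond the edge of the peak. The E-box CAGGTG (29.9% of the list) and the GATA words AGATAA (10.5%) and TGATAA (6.5%) were present in none of the 4 peaks, which says only that these letters are not in these windows. By these exact letters, the 4 peaks thus comprised a peak with bHLH motifs only, a pair with RUNX and ETS motifs, and the +31.3 kb peak with all of them. This division did not hold with wider motifs, under which 4 of 4 peaks had an ETS match (GGAA with A or C before it and A or G after it, found in 77.5% of the list) and 3 of 4 a match to CANNTG (86.7%).

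**Figure D3:**
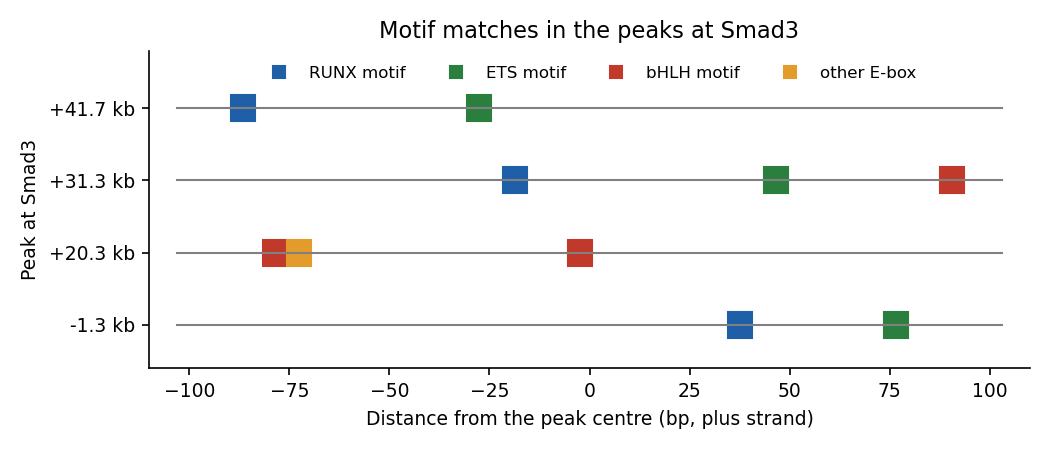
Matches to the RUNX, ETS and bHLH motifs and to a further E-box in the 4 peaks at Smad3, by distance from the peak centre in bp (x axis, plus strand). The +31.3 kb peak holds all 3 main motifs, and the +20.3 kb peak holds only E-boxes among the letters plotted.

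By exact copies of 50 bp, none of the 4 sequences was repeated. Each of the 158 overlapping words of 50 bp in each peak occurred once in the assembled chromosomes. The alignment kept reads with several places in the genome, and these peaks had no exact copy of that length elsewhere. Inexact copies were not counted. In the reference, 10.6% of the -1.3 kb peak was soft-masked, that is, marked as repeat or low-complexity sequence, and 0% of the other peaks. The longest run of letters shared by any pair of the peaks, in either orientation, was 10 bp. Their GC content was 57.5% at +41.7 kb, 59.4% at +31.3 kb, 49.3% at +20.3 kb and 60.4% at -1.3 kb, beside medians of 52.7% in the list and 48.8% in the tiled windows. The -1.3 kb peak had 7 CpG sites and the +20.3 kb peak 2, against a median of 4 in the list.

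By number of peaks, Smad3 was 1 of 13 genes with at least 4 in the list. Of 21900 RefSeq protein-coding genes, 0.0411% had as many. Of the 1167 gene names in the list, 942 had 1 peak and 38 had 3. More than 4 peaks were listed for Mir6388 (7), Runx3 (6), Cbfa2t3 (5) and Speer1 (5), and 8 other genes had 4, among them Cpn2, Gm5122, Rcbtb2 and Gm17746. The peaks given to Mir6388 and Speer1 lay mainly in sequence with further exact copies elsewhere, 5 of 7 and 5 of 5. In 7 of the 13 genes, Runx3, Cbfa2t3, Cpn2, Gm5122, Rcbtb2, Gm17746 and Smad3, no peak did so.

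Among these 7, Smad3 had the lowest maximum score and the lowest median score. Runx3, which encodes a RUNX factor, had a median of 29.25 and a maximum of 62.5. For Cbfa2t3, which encodes the corepressor ETO2, a known partner in LMO2 complexes, the median was 47.9 and the maximum 101.7. The medians of the other 4 ran from 25.45 for Gm17746 to 44.05 for Cpn2. The position of the peaks differed as well, since 3 of 4 at Smad3 lay in the gene body, against 1 of 6 for Runx3, 2 of 5 for Cbfa2t3 and 0 for the other 4. Smad3, at 111229 bp, is also the longest of the 7 genes, and the others run from 2729 bp for Gm5122 to 74197 bp for Cbfa2t3. The 4 peaks at Smad3 spanned 43.0 kb, beside 37.1 kb for the 5 at Cbfa2t3 and 123 kb for the 6 at Runx3. Among the others with 4 peaks, the span was 18.4 kb for Rcbtb2, 25.1 kb for Gm5122, 52.9 kb for Cpn2 and 266 kb for Gm17746. Among all 13 genes with at least 4 peaks, Tex14 had the most in the gene body, 4 of 4, each in repeated sequence. Tex14 is longer than Smad3, at 150811 bp, and its peaks spanned 28.1 kb. It is named here after its values were seen. The genes were chosen for their number of peaks and these differences were not tested.

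**Figure D4:**
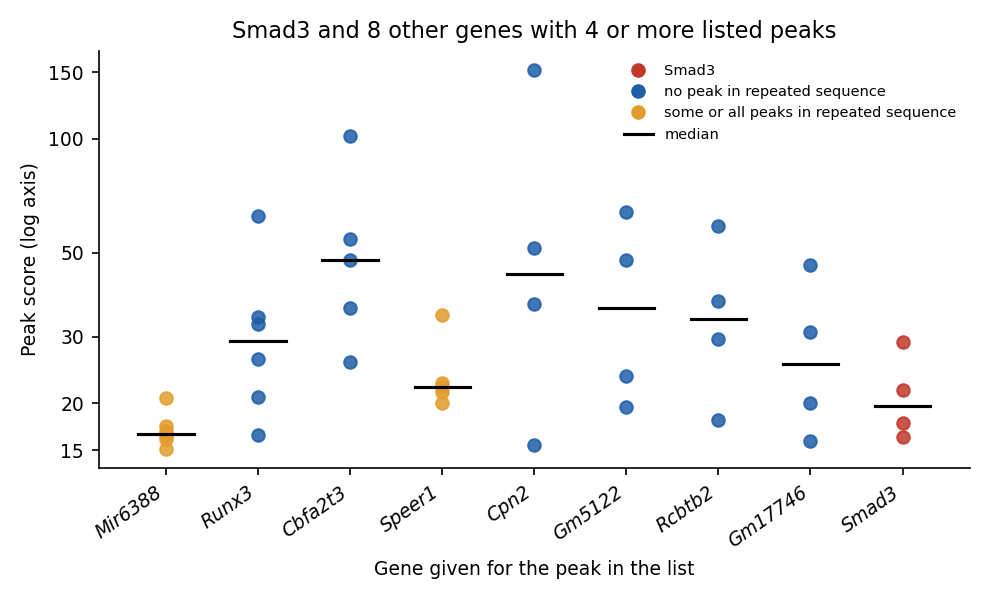
Peak scores (y axis, log scale) of the peaks given to Smad3 and to 8 other genes with at least 4 listed peaks, 1 point per peak, with the median as a line. The maximum at Smad3, 29.1, is below that of each gene without a peak in repeated sequence (blue).

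Of the 8 Smad genes of the mouse, only Smad3 had a row in the list. The other 7 had none by name and none in the gene body. Of RefSeq protein-coding genes, 4.25% had at least 1 listed peak by name and 3.03% had one in the body. With shares this low, the absence of a peak from 7 genes is not unusual and was not tested. Smad2, which encodes the other receptor-activated Smad of the TGF-β branch, was 953841 bp from the nearest listed peak. Smad4, the shared partner, was 1172787 bp from it. Smad6, the inhibitory Smad that neighbours Smad3 on chromosome 9, has its nearer edge 195082 bp from Smad3. The nearest listed peak to Smad6 was the -1.3 kb peak of Smad3, 193638 bp away. Smad7, also inhibitory, had 2 listed peaks within 100 kb, the nearest at 80116 bp with a score of 19.9, but the list gave it to 2010010A06Rik. The Smads of the BMP branch, Smad1, Smad5 and Smad9, were 1064279, 529645 and 2200138 bp from the nearest listed peak.

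**Figure D5:**
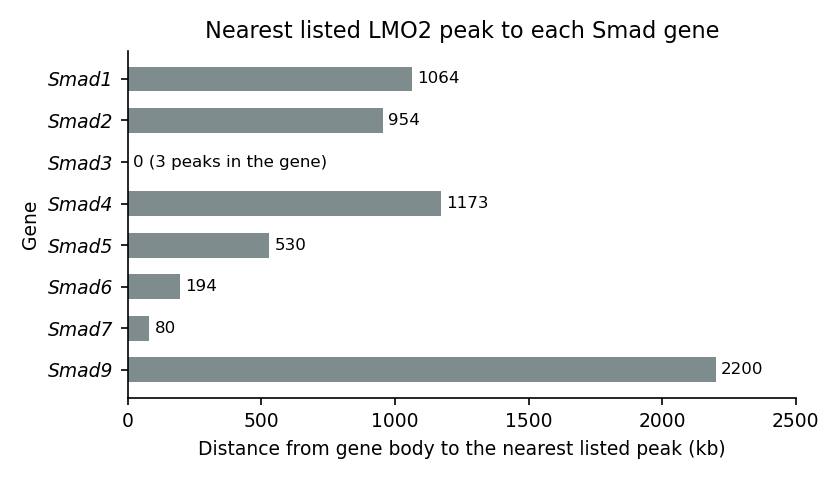
Distance in kb (x axis) from the body of each of the 8 Smad genes to the nearest listed LMO2 peak. Smad3 is at 0 with 3 peaks in the gene, and Smad7 and Smad6 are the next nearest.

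Of 44 other genes of the TGF-β, activin and BMP pathways, 3 (6.82%) were given a listed peak, beside the same 4.25% of protein-coding genes. None of the 11 ligands had one. Of the 12 receptors, Tgfbr1 and Tgfbr2, the type I and type II receptors of TGF-β, were given one, in neither case inside the gene body. Of the 14 Smad partners and regulators, it was Pmepa1, an inhibitor of the pathway whose expression TGF-β induces.

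At Tgfbr1, both listed peaks were upstream, at -49782 bp with a score of 18.9 and at -37573 bp with a score of 22.6. The list annotated the peak at -49782 bp to intron 33 of 39 of another transcript, NM_009928, outside the body of Tgfbr1. For Tgfbr2, the single peak was given at 98253 bp from a TSS, 10482 bp outside the gene body, with a score of 16.7. The list annotated this peak to the end of another transcript, NM_028638. For Pmepa1, a peak at -73210 bp had a score of 73.3, the 45th of the list, and a peak in intron 1 of 3 had a score of 16.5. The Pmepa1 peak with the score of 73.3 was above each of the 4 at Smad3, whereas the receptor peaks lay within their range. All 5 of these peaks held the RUNX or the ETS motif, as did 78.5% of the list. By gene name, Smad3 was the only gene of the pathway with more than 2 listed peaks, but it was chosen for its number of peaks. Within 100 kb of the gene body, however, Tgif2, of the Smad partners and regulators, had 3 and Smad3 had 4. Tgif2 is named here after its values were seen.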

How the data were processed

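LMO2 ChIP-seq was performed by the authors on 2 ChIP and 2 input samples of pro-B(+) cells. Per the labels and methods, they aligned single reads to mm10 with Bowtie 1.1.1, with up to 3 mismatches and at most 10 places per read, called peaks with HOMER against the input, and annotated those that IDR found in both replicates and whose normalized score reached 15. The labels and methods differ on sequencer and read length. The deposited peak score is a HOMER score whose scaling is not given in the sources used here. The deposited focus ratio is a fraction from 0 to 1. The deposited distances to the TSS are in bp. Neither read counts nor replicate values come with the peaks, so the reads behind each peak are unknown and no test was made. The read depth named in the methods was not used.

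From the list, ranks, spacings and counts per gene were computed. Sequences, genes and transcripts came from RefSeq GRCm38.p6, the same assembly as mm10, with GENCODE M21 as a second annotation. The given distances to the Smad3 TSS equalled those to the RefSeq start. Motif letters were searched on both strands of each peak and in 207 bp windows tiled over the gene and 100 kb to either side. Copies of 50 bp words were counted on both strands of chromosomes 1 to 19, X and Y. A peak counted as repeated when 50% or more of its words had another copy. The motif search and the copy count were tested on simulated sequences.

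The members, gene lists and alternatives were chosen with earlier results of these data known. The genes named are the Smad genes, the pathway genes with a listed peak, at most 8 other genes with at least as many peaks as Smad3 (by number, then highest score) and genes within 500 kb. Alternatives were minimum scores of 20 and 30, assignment by the gene body or within 100 kb of it, other windows and wider motifs. Python 3.11.15, NumPy 2.4.6, pandas 2.3.3, numba 0.67.0 and Matplotlib 3.10.9 were used.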

Additional observations from a re-analysis of the deposited data

How the results depend on the processing

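No paired analysis was possible because each deposited value covers both replicates together. Leaving out a replicate was not possible for the same reason. Of 22 values under alternative settings, 16 stayed within 1.5 times the value given above. A minimum score of 20 left 2 peaks at Smad3 (the +31.3 kb and +20.3 kb peaks) and 86 genes with at least as many, in place of 13, and a minimum of 30 left 0 peaks. In the central 100 bp, 1 peak held the bHLH motif in place of 2. With wider motifs, 4 peaks held an ETS match and 3 a match to CANNTG, in place of 3 and 2, and in 500 bp around the centre 4 held the RUNX motif, in place of 3. Counting any listed peak within 100 kb of the gene body gave 1 other Smad gene (Smad7) in place of 0, and 13 of 45 pathway genes in place of 4, beside 18.8% of protein-coding genes. The wider motifs also took TGCGGT for RUNX, CAGGTG or CANNTG for bHLH, and, for ETS, GGAA with A or C before it and A or G after it.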

Other observations

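Ski, which encodes a corepressor of SMAD3, had 1 listed peak in its gene body, with a score of 17.8, for which the list gave no gene name. Such peaks without a name numbered 122 of 1585, so counts by gene name leave them out. Around Tgfb1, a ligand of the pathway, 2 listed peaks lay within 100 kb, the nearest 13840 bp from the gene with a score of 22.8, and the list gave that peak to Ccdc97.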
